A study of Mus musculus and Acomys cahirinus with 18 samples.

Results

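The genes described here encode fibroblast growth factors (FGFs), platelet-derived growth factors (PDGFs), vascular endothelial growth factors (VEGFs), angiopoietins and hepatocyte growth factor, with their receptors and with genes that carry similar names. They were chosen by symbol: Fgf followed by a digit, or a symbol that begins with Fgfr, Fgfbp, Pdgf, Vegf or Angpt, or one of Kdr, Flt1, Flt4, Tek, Tie1, Pgf, Nrp1, Nrp2, Hgf and Met. Of 6385 symbols found in any of the authors' 4 tables, 29 met this rule, 5 of them in Acomys and 28 in mouse. RefSeq annotates 61 mouse protein-coding genes that match the rule, so 32 were in no table.

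The study set kidneys of Acomys cahirinus, the spiny mouse, beside kidneys of the laboratory mouse after unilateral ureteral obstruction (UUO), in which 1 ureter is closed and the kidney behind it is injured. Animals were wild type males. The groups were Acomys at day 2 of obstruction (10.3 to 14.3 weeks old), Acomys at day 5 (9.9 to 10.4 weeks), sham-operated Acomys (9.9 to 14.3 weeks), C57BL/6 mice at day 2 (10.1 weeks), at day 5 (10.1 to 14 weeks) and sham-operated C57BL/6 mice (7 to 14 weeks), with 3 whole-kidney libraries in each and 18 in all. The labels do not say that each library came from a separate animal, so the p-values measure the spread between these libraries only. The deposited values are the authors' own comparisons, in which obstructed kidneys are set against sham kidneys of the same species and day groups are not set against each other; values per library and read totals were not used here, so the depth is unknown.

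Each table holds a log fold change (read as log2, the scale of edgeR), a mean expression over the libraries of the species (logCPM, the log2 of the depth-scaled count) and a false discovery rate (FDR, an adjusted p-value). All entries are under an FDR of 0.05. A gene absent from a table may have changed less, varied more or not been tested. Kidney markers were present in the authors' deposited tables: the mean expression of the uromodulin gene Umod of the thick ascending limb was 10.17 logCPM in Acomys, and that of Lrp2, the megalin gene of the proximal tubule, was 10.49 logCPM in mouse. The mouse injury marker gene Havcr1 rose by 8.60 on day 2 and 8.19 on day 5 in the authors' deposited tables.

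These families signal through receptor tyrosine kinases. FGFs bind FGF receptors together with heparan sulfate or a Klotho protein, PDGF ligands made by endothelial and epithelial cells act on PDGF receptors of pericytes and fibroblasts, and VEGF-A made by podocytes and tubules acts on VEGF receptors of the capillary endothelium. Angiopoietins bind the endothelial receptor TIE2, and HGF from stromal cells binds the epithelial receptor MET. In the kidney PDGF receptor signalling is known for driving pericytes and fibroblasts to proliferate and deposit matrix, and VEGF-A for maintaining glomerular and peritubular capillaries.

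In Acomys 4 genes of the set were listed on each day, 3 risen and 1 fallen, where 89.9% of all entries rose and 10.1% fell on day 2, and 78.6% rose and 21.4% fell on day 5. The mouse day 2 table held 17 genes of the set, 8 risen (47.1%) and 9 fallen, against 58.3% risen and 41.7% fallen among all its entries. The mouse day 5 table held 21, with 14 risen (66.7%) and 7 fallen, against 60.9% risen and 39.1% fallen among all its entries. The median log2 fold change of the listed genes was 1.59 on day 2 and 1.75 on day 5 in Acomys, where all entries had medians of 1.99 and 1.95. The corresponding mouse medians were -0.88 and 1.25, where all entries had 1.03 and 1.14. By Entrez ID, 6.56% of the 61 RefSeq genes of these families were listed on each day in Acomys, against 5.09% of all protein-coding genes on day 2 and 6.40% on day 5. In mouse the shares were 27.9% on day 2, against 15.7% of all protein-coding genes, and 34.4% on day 5, against 21.6%. RefSeq counts include genes that the kidney does not express and that may not have been tested.

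**Figure D1:**
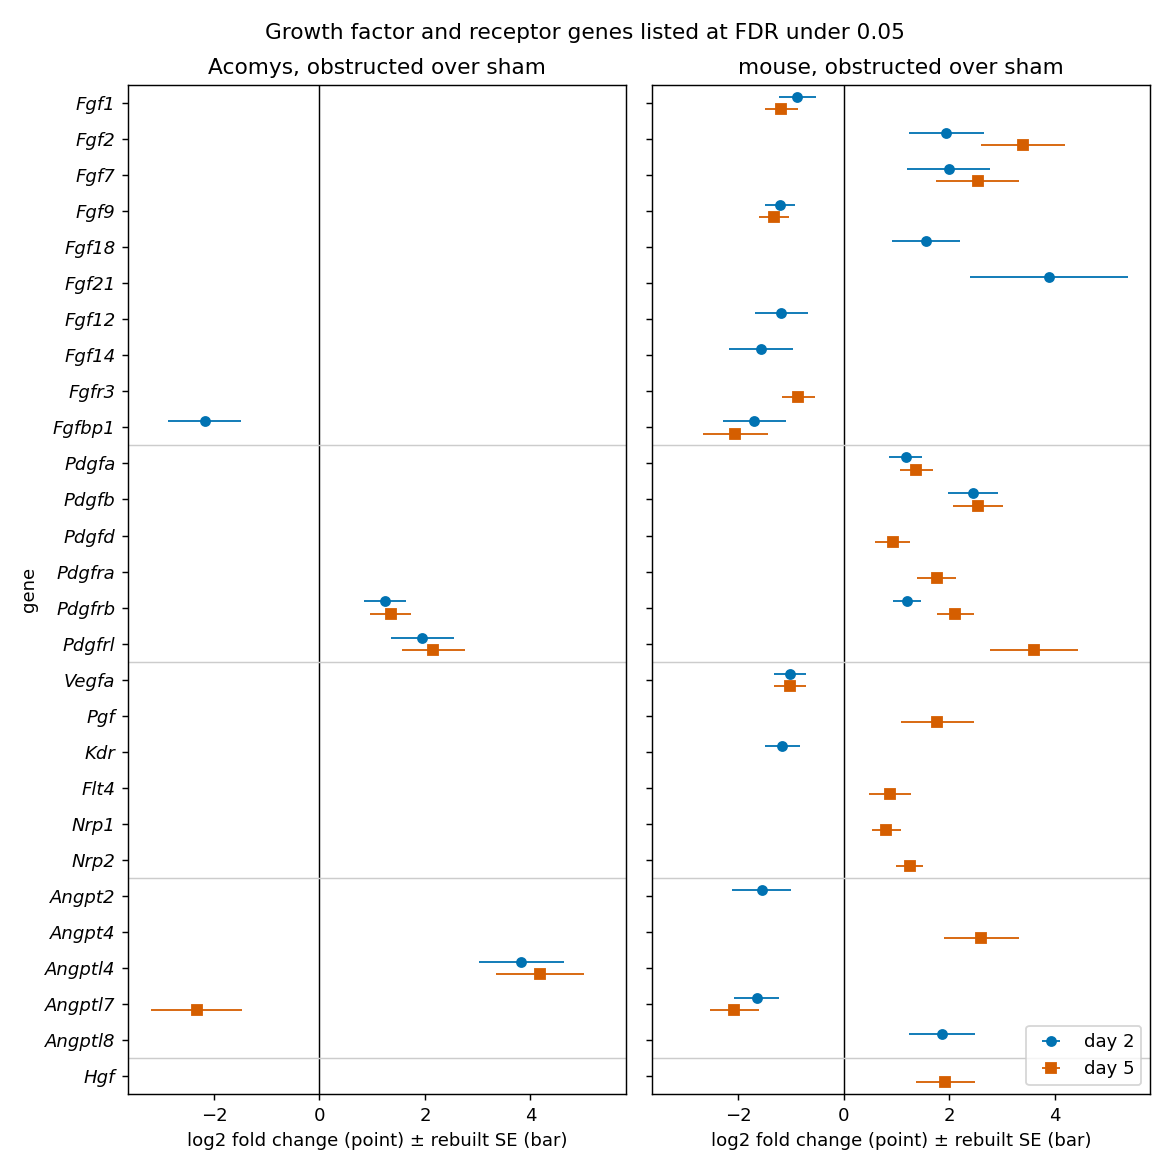
Log2 fold change of obstructed over sham kidneys for 28 of the listed genes, Acomys in the left panel and mouse in the right, day 2 as circles and day 5 as squares, with bars for the standard error rebuilt from the FDR. A gene with no point was not listed in that comparison; Acomys has 4 points on each day and mouse 17 on day 2.

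**Figure D2:**
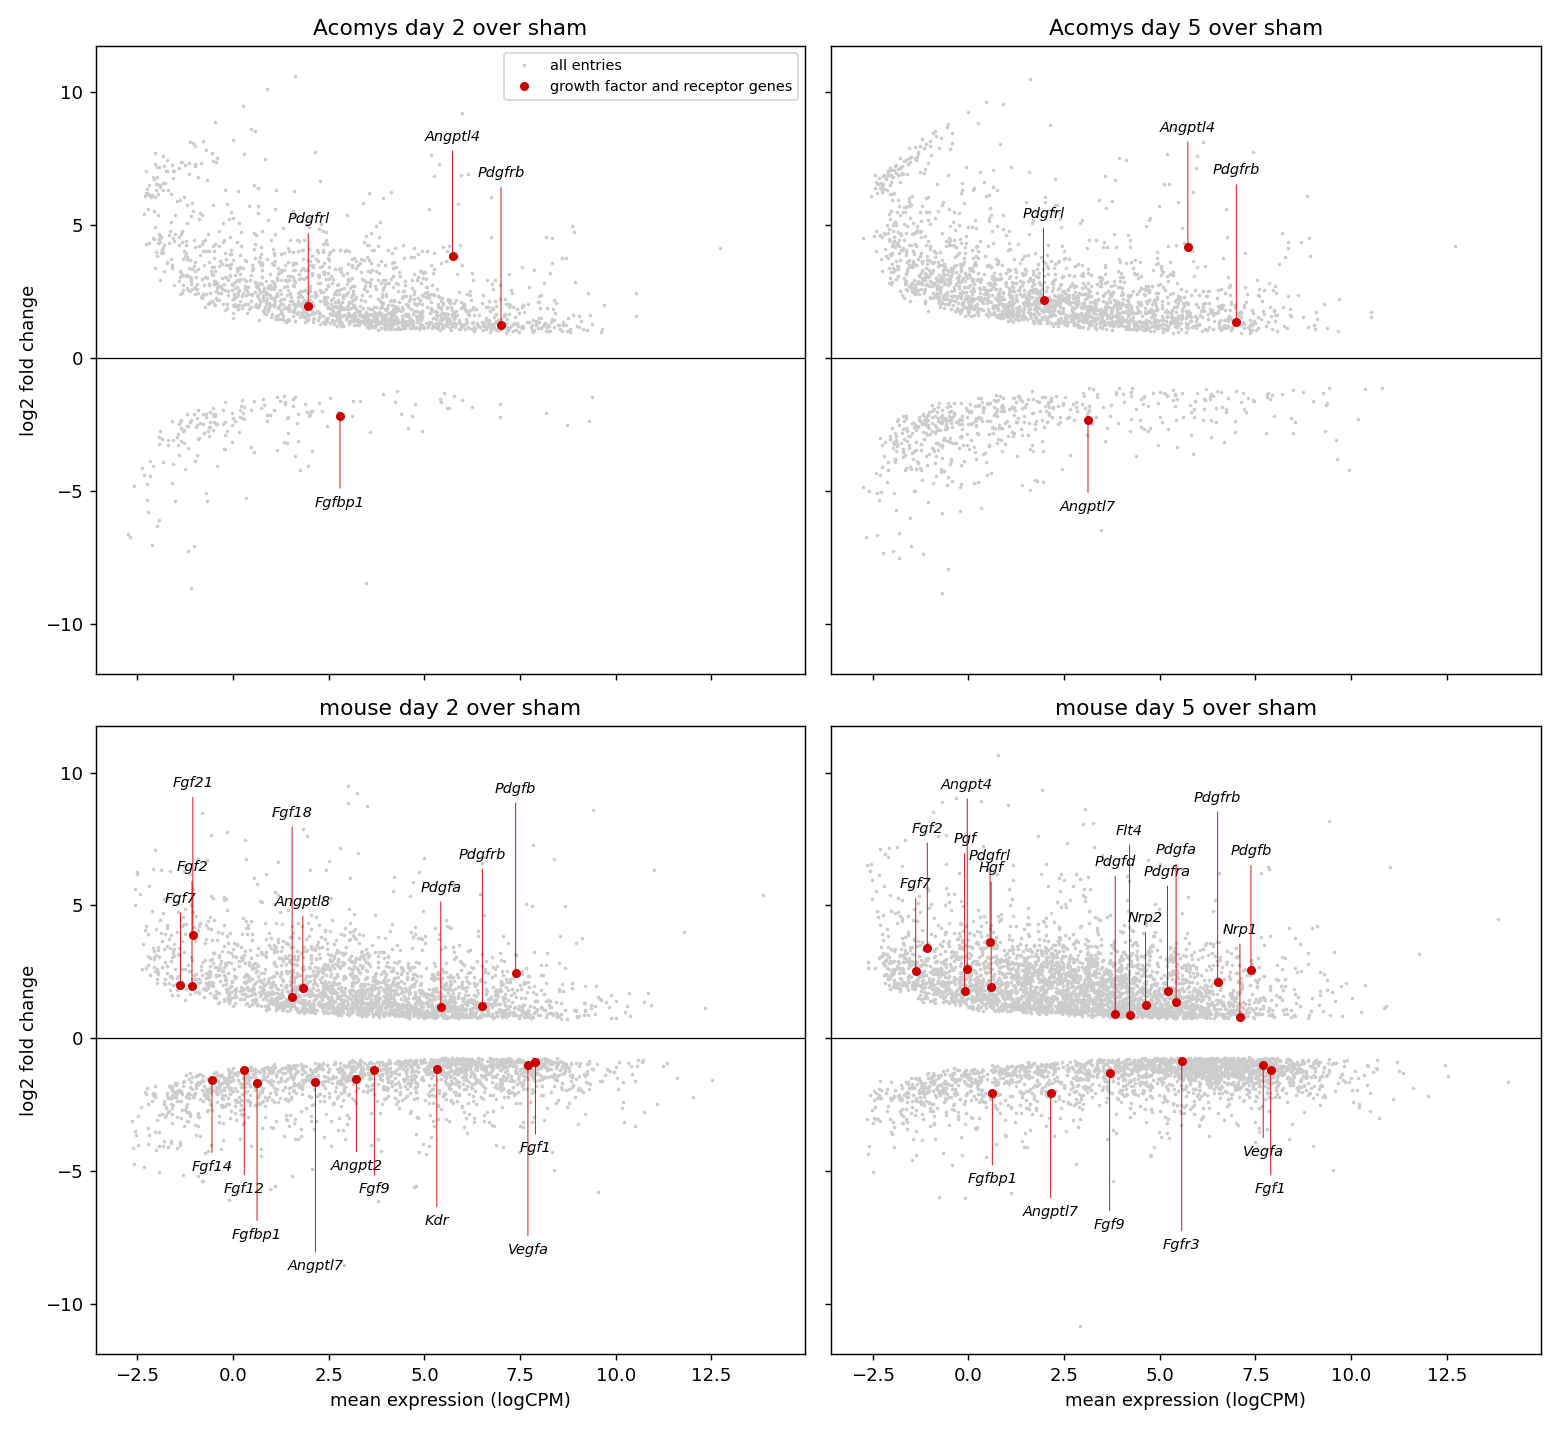
Log2 fold change against mean expression (logCPM) in the 4 comparisons, with all listed entries in grey and the same 28 growth factor and receptor genes in red. The empty band around 0 is the range in which no entry was listed, and it widens at low expression; in Acomys Angptl4 stands at 3.83 on day 2 and 4.18 on day 5.

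PDGF ligand and receptor genes rose in mouse, and the receptor gene Pdgfrb rose in both species. Pdgfrb encodes the PDGF receptor beta of pericytes, mesangial cells and fibroblasts. In Acomys the authors' deposited tables gave Pdgfrb at 1.24 on day 2 (FDR 0.017) and 1.35 on day 5 (FDR 0.0066). In mouse the authors' deposited tables gave it at 1.20 on day 2 (FDR 5e-05) and 2.12 on day 5 (FDR 1.1e-07), the 80th lowest FDR of the 5365 entries of that day. Both days of a species were compared with the same sham libraries, so a change between days was not tested.

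Pdgfb, whose product is the main ligand of that receptor and binds the alpha receptor as well, rose in mouse by 2.45 on day 2 (FDR 4.9e-06) and 2.55 on day 5 (FDR 2e-06) in the authors' deposited tables, which is 5.48-fold and 5.86-fold. Pdgfa, a ligand of the alpha receptor, rose by 1.18 (FDR 0.00069) and 1.38 (FDR 7.2e-05) on the same days per the authors' deposited tables. Pdgfd, another ligand of the beta receptor, was listed on mouse day 5 only, at 0.93 (FDR 0.012) in the authors' deposited table. Pdgfra, the alpha receptor gene of interstitial fibroblasts, was likewise listed on mouse day 5 alone and stood at 1.77 (FDR 1.2e-05) in the authors' deposited table. All 5 of these genes that mouse day 5 listed rose, and Pdgfc was in no table. No PDGF ligand gene and no Pdgfra entry was listed in Acomys on either day.

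Pdgfrl encodes a secreted protein that resembles a PDGF receptor but lacks a kinase, and it rose where it was listed. The authors' deposited tables placed it at 1.95 on Acomys day 2 (FDR 0.011), 2.16 on Acomys day 5 (FDR 0.0041) and 3.61 on mouse day 5 (FDR 0.0001). It was not listed on mouse day 2. Among mouse entries of that day within 0.5 logCPM of Pdgfrl the smallest listed rise was 1.05.

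Among markers of cells that carry PDGF receptors, most fibroblast genes were listed as risen except on mouse day 2, while few pericyte genes were listed in Acomys and those in mouse went both ways. In Acomys 10 of 15 fibroblast and myofibroblast genes rose on day 2 and 10 on day 5, with 0 fallen, and their medians were 2.71 and 2.64. In mouse 7 of the 15 rose on day 2 and 14 on day 5, with 0 fallen and medians of 2.54 and 2.62. Col1a1, a fibrillar collagen gene, stood in the authors' deposited tables at 4.54 and 4.71 on Acomys days 2 and 5, and at 3.76 and 4.23 on mouse days 2 and 5. Of 12 pericyte and mesangium genes 1 rose on Acomys day 2 and 2 on Acomys day 5 with 0 fallen, while in mouse 3 rose and 2 fell on day 2 and 4 rose and 2 fell on day 5. The intermediate filament gene Des rose by 2.95 and 2.69 in Acomys and by 1.44 and 1.74 in mouse, per the authors' deposited tables. Abcc9, a potassium channel subunit gene of pericytes, stood at -1.91 and -1.20 in mouse in the same authors' deposited tables. The other fallen mouse gene was Anpep, at -1.36 and -1.33 in those tables. Which cells the fall of Anpep came from was not tested. The part of these cell types in the PDGF results was not tested. In whole-kidney RNA more cells of a type and more RNA per cell cannot be told apart.

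In the VEGF family the main ligand gene fell in mouse on both days, and other members were listed as risen on day 5. Vegfa stood at -1.02 on day 2 (FDR 0.0028) and -1.02 on day 5 (FDR 0.002) in the authors' deposited tables, at 0.492 of the sham level on both days. Kdr, the gene of VEGF receptor 2 of blood capillaries, fell by 1.16 on mouse day 2 (FDR 0.0023) in the authors' deposited table and was not listed on day 5, when entries within 0.5 logCPM were listed down to a fall of 0.73. Flt4, the gene of VEGF receptor 3 of lymphatic endothelium, was listed on day 5 at 0.88 (FDR 0.042) per the authors' deposited table. The neuropilin genes Nrp1 and Nrp2, whose products are co-receptors for VEGFs and for class 3 semaphorins, stood at 0.81 (FDR 0.0072) and 1.25 (FDR 1.6e-05) on mouse day 5 in the authors' deposited table. Pgf, placental growth factor, a ligand of FLT1, rose by 1.78 on mouse day 5 (FDR 0.021) at a mean expression of -0.10 logCPM in the authors' deposited table. Flt1, Vegfb, Vegfc and Vegfd were in no table, and no VEGF ligand or receptor gene was listed in Acomys.

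Class 3 semaphorin and plexin genes, of which only some encode partners of the neuropilins, gave 8 rises and 0 falls among 16 on mouse day 5. Their median was 1.25, against 1.14 for all entries. On mouse day 2 there were 2 rises and 0 falls (median 1.13, against 1.03). The list was not limited to plexins known to pair with neuropilins, so Plxnc1, Plxnb1 and Plxnb3 are not read as neuropilin partners here. Plxnd1, an endothelial plexin gene, rose by 1.64 and the semaphorin gene Sema3d by 1.45 on mouse day 5 in the authors' deposited table. In Acomys 1 of the 16, Plxnc1, was listed on each day, at 1.61 and 2.10 in the authors' deposited tables, against 1.39 and 2.70 in mouse.

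Markers of the cells that receive or make VEGF were listed beside these genes in part. Of 26 endothelial genes 0 rose and 0 fell on Acomys day 2 and 1 rose on Acomys day 5, the von Willebrand factor gene Vwf at 1.21 in the authors' deposited table. In mouse 1 fell on day 2, Clec14a at -1.03, and 4 rose on day 5, from Cdh5 at 0.95 to Aplnr at 1.95, in the authors' deposited tables. Pecam1 was not listed in any comparison. Of 6 lymphatic endothelium genes 2 rose and 0 fell on Acomys day 2, 2 rose and 1 fell on Acomys day 5, and 1 rose and 2 fell on each mouse day. In Acomys the risen genes were Lyve1 (2.14 and 2.14) and Pdpn (2.23 and 2.49), and the fallen gene was Prox1 (-2.53), in the authors' deposited tables. Which cells these Acomys changes came from was not tested. The risen mouse gene was Pdpn, which podocytes also express (1.62 and 2.20 in the authors' deposited tables). The fallen mouse genes were Prox1 (-2.24 and -1.74) and Reln (-2.06 and -1.22). The part of lymphatic cells in the Flt4 result was not tested. No podocyte gene fell in any comparison: of 10, none was listed in Acomys, 1 rose on mouse day 2 and 3 rose on mouse day 5. Proximal tubule genes fell in 12 of 14 cases on mouse day 2 and in 14 of 14 on mouse day 5 (medians -1.60 and -2.00), against 0 and 1 of 14 in Acomys. Among all entries 41.7% and 39.1% fell on mouse days 2 and 5, against 10.1% and 21.4% in Acomys. Proximal tubule genes not listed in Acomys may still have fallen. The part of proximal tubule genes in the fall of Vegfa was not tested.

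Genes that hypoxia is known to induce, of which Vegfa is a textbook example, moved in both directions in mouse. The list held 22 genes, among them the pathway genes Hif1a, Epas1, Arnt and Vhl, with Vegfa itself outside it. Of these 22, 4 rose and 3 fell on mouse day 2 and 3 rose and 4 fell on mouse day 5. Hif1a, Epas1, Arnt and Vhl were not among the risen or fallen genes in any comparison. The authors' deposited tables held the hexokinase gene Hk2 at 3.08 and 3.35 and the lysyl oxidase gene Lox at 2.69 and 4.26 on mouse days 2 and 5. The carbonic anhydrase gene Car9 stood at -2.17 and -1.84 and the pyruvate dehydrogenase kinase gene Pdk1 at -1.24 and -0.94 in the same authors' deposited tables. In Acomys 0 of the 22 were listed on day 2 and 1, Hk2 at 2.30, on day 5 in the authors' deposited table.

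Promoter sequences of a risen and a fallen ligand gene of the mouse, Pdgfa and Vegfa, are shown because each was listed on both days, in opposite directions. Both are the 250 bases before the most upstream start that RefSeq gives for the gene, build GRCm38.p6, read 5′ to 3′ on the gene's strand. The Pdgfa window is chr5:138994945-138995194 and the Vegfa window chr17:46032378-46032627, both on the minus strand. Capitals mark the GC box GGGCGG on either strand (CCGCCC where it lies on the other strand).
Pdgfa: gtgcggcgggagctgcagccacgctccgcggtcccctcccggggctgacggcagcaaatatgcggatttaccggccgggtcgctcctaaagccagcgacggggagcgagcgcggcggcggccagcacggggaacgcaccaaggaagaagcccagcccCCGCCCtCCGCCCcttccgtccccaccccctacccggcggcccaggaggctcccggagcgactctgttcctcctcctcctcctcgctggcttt
Vegfa: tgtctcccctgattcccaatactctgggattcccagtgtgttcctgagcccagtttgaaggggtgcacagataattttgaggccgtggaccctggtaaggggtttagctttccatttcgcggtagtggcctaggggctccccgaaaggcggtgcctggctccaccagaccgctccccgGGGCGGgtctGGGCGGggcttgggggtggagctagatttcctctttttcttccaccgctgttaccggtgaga
Each window held 2 GC boxes, and a link of these boxes to the direction of change was not tested. The GC content of the window was 72.4% for Pdgfa and 59.2% for Vegfa. Such windows of 250 bases were available for 22 of the 29 genes (30 windows), and 19 of these 30 (63.3%) held GGGCGG, against 32.7% of all 32851 RefSeq windows, which include starts of non-coding genes. The hypoxia response core ACGTG was in 3 of the 30, those of Fgf9, Fgf21 and the second Vegfa window (not printed), against 16.6% of all windows, and the AP-1 site TGANTCA in 1 of the 30, against 6.75% (both strands searched, overlaps between motifs not removed). Neither of these was in the printed windows.

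FGF ligand genes split by direction in mouse, and none was listed in Acomys. Fgf2, basic FGF, rose by 1.95 on day 2 (FDR 0.018) and 3.40 on day 5 (FDR 9.3e-05) in the authors' deposited tables, at a mean expression of -1.07 logCPM. Fgf7, the keratinocyte growth factor that stromal cells make for epithelial receptors, rose by 1.99 (FDR 0.03) and 2.54 (FDR 0.0033) at -1.38 logCPM, per the authors' deposited tables. Fgf1, acidic FGF, fell by 0.88 on day 2 (FDR 0.033) and 1.18 on day 5 (FDR 0.00058) at 7.90 logCPM in the authors' deposited tables. Fgf9, which in the developing mouse kidney helps to maintain nephron progenitors, fell as well and stood at -1.21 (FDR 0.00011) on day 2 and -1.32 (FDR 2.3e-05) on day 5 in the authors' deposited tables. The 2 risen genes of this group thus had mean expression below 0 logCPM and wide errors, with rebuilt standard errors of 0.71 to 0.79, against 0.28 to 0.35 for Fgf1 and Fgf9.

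Another 4 FGF genes were listed on mouse day 2 only. Fgf21, an endocrine FGF known as a hormone of fasting and metabolic stress, stood at 3.89 (FDR 0.028) in the authors' deposited table, with a rebuilt standard error of 1.5 and a mean expression of -1.05 logCPM. Fgf18 stood at 1.56 (FDR 0.039) in the authors' deposited table. Fgf12 and Fgf14 encode intracellular FGF homologous factors that bind sodium channels rather than FGF receptors, and they stood at -1.18 (FDR 0.047) and -1.57 (FDR 0.027) in the authors' deposited table. By day 5 the smallest listed changes near the expression of these 4 genes were rises of 0.92 to 1.34 and falls of 0.91 to 1.20. Fgfr3, a receptor gene, was listed on mouse day 5 only, at -0.86 (FDR 0.011) in the authors' deposited table, and Fgfr1, Fgfr2, Fgfr4 and Fgfrl1 were in no table. The FGF genes Fgf3, Fgf4, Fgf5, Fgf6, Fgf8, Fgf10, Fgf11, Fgf13, Fgf15, Fgf16, Fgf17, Fgf20 and Fgf22 were in no table either, and nor were Fgfbp3 and Fgfr1op2.

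Fgfbp1 encodes a secreted carrier that releases FGFs from the matrix, and it fell in both species. The authors' deposited tables gave -2.18 on Acomys day 2 (FDR 0.016), and -1.69 on mouse day 2 (FDR 0.016) and -2.05 on mouse day 5 (FDR 0.0028). On Acomys day 5 it was not listed, when entries within 0.5 logCPM were listed down to a fall of 1.12.

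FGF co-receptor and feedback genes changed in both directions. Of 29 such genes 2 rose and 0 fell on Acomys day 2, and 0 rose and 1 fell on Acomys day 5. In mouse 3 rose and 4 fell on day 2 (median -1.16, against 1.03 for all entries), and 4 rose and 3 fell on day 5 (median 1.43, against 1.14). Kl, which encodes Klotho, the co-receptor for FGF23, fell in mouse by 1.84 on day 2 (FDR 1.4e-05) and 2.15 on day 5 (FDR 1.9e-06) in the authors' deposited tables, and was not listed in Acomys. The feedback inhibitor gene Spred3 rose in mouse by 1.79 and 1.97, and Spry1, a Sprouty gene induced by receptor tyrosine kinase signalling, by 1.53 on day 5 alone, per the authors' deposited tables. Among ETS factor genes that FGF signalling is known to induce, Etv4 rose in mouse (1.62 and 1.43 in the authors' deposited tables), Etv1 fell (-1.71 and -1.65), and Etv5 fell on day 2 alone (-1.16). Dusp6, the ERK phosphatase gene that FGF signalling induces, rose on Acomys day 2 by 1.36 (FDR 0.029) in the authors' deposited table and was not listed in mouse. Hs6st1, a heparan sulfate sulfotransferase gene, was the other risen Acomys gene (1.24 in the authors' deposited table), and Flrt1 fell by 1.92 on Acomys day 5.

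Klotho and FGF23 regulate phosphate in the kidney, and Fgf23 itself was in no table. Of 15 symbols of phosphate handling, Kl included, 2 rose and 0 fell on Acomys day 2, and 1 rose and 0 fell on Acomys day 5. Nherf1 and Slc9a3r1 among the 15 are symbols of the same gene. In mouse 2 rose and 4 fell on day 2, and 2 rose and 5 fell on day 5 (medians -1.45 and -1.11). Slc34a2, the phosphate transporter gene NaPi-IIb, rose in both species, by 3.56 and 4.14 on Acomys days 2 and 5 and by 4.16 and 3.95 on mouse days 2 and 5 in the authors' deposited tables. The proximal tubule transporter gene Slc34a3 fell in mouse by 2.14 and 3.18 in the authors' deposited tables, and neither Slc34a1 nor Slc34a3 was listed in Acomys.

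Angiopoietin genes were listed in mouse and angiopoietin-like genes in both species. Angpt2, which encodes a context-dependent antagonist of TIE2, fell by 1.55 on mouse day 2 (FDR 0.018) in the authors' deposited table, and was not listed on day 5, when falls near its expression were listed down to 0.80. Angpt4, a TIE2 agonist gene, rose by 2.61 on mouse day 5 (FDR 0.00079) at -0.03 logCPM in the authors' deposited table. Angpt1 and the receptor genes Tek and Tie1 were in no table.

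Angiopoietin-like proteins do not bind TIE2, and several of them inhibit lipoprotein lipase. Angptl4, an inhibitor of that enzyme, was the steepest riser of the set in Acomys, by 3.83 on day 2 (FDR 9.9e-05) and 4.18 on day 5 (FDR 7.9e-05) in the authors' deposited tables, which is 14.3-fold and 18.2-fold. It ranked 154th by FDR of 1765 Acomys entries on day 2 and 81st of 2500 on day 5, and it was the only gene of the set listed in Acomys and in neither mouse table. Whether the change differs between the species could not be tested without a mouse value; the smallest rises listed at any expression in mouse were 0.73 on day 2 and 0.75 on day 5. In a list of 9 brown and white fat genes 1 rose in Acomys on day 2 and 2 on day 5, the lipid droplet gene Cidec at 3.65 and 2.59 and the adipsin gene Cfd at 2.32 on day 5 in the authors' deposited tables. In mouse 0 of the 9 rose, and 4 and 3 fell on days 2 and 5. Among the fallen were the brown fat gene Ucp1 (-5.56 and -5.84) and Cidea (-4.05 and -4.46) in the authors' deposited tables. Both had low mean expression, 1.1 logCPM for Ucp1 and 0.46 for Cidea. Rebuilt standard errors were wide, 1.72 and 1.76 for Ucp1 and 1.34 and 1.4 for Cidea. The fat cell genes Adipoq, Plin1 and Lep were not listed in either species, and the part of fat cells in the Angptl4 result was not tested.

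Angptl7, a secreted protein gene known from the cornea and the eye's outflow tissue, fell in both species and stood at -2.33 on Acomys day 5 (FDR 0.035), and at -1.65 on mouse day 2 (FDR 0.00054) and -2.07 on mouse day 5 (FDR 4.3e-05), in the authors' deposited tables. Angptl8, a secreted regulator of lipoprotein lipase, rose by 1.87 on mouse day 2 alone (FDR 0.01) in the authors' deposited table. Angptl1, Angptl2 and Angptl6 were not listed in any comparison.

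Hgf rose on mouse day 5 by 1.93 (FDR 0.0017) at 0.59 logCPM in the authors' deposited table, and its receptor gene Met was in no table. Of 17 genes for HGF activation and MET partners 3 rose and 0 fell on Acomys day 2 and 3 rose and 1 fell on Acomys day 5 (medians 1.85 and 2.06, against 1.99 and 1.95 for all entries). In mouse 4 rose and 2 fell on day 2 and 4 rose and 3 fell on day 5 (medians 0.97 and 1.03, against 1.03 and 1.14). The steepest were Cd44, a hyaluronan receptor gene whose product can act as a MET co-receptor, and Plaur, the urokinase receptor gene. Cd44 stood at 1.85 and 2.51 on Acomys days 2 and 5, and at 4.44 and 6.38 on mouse days 2 and 5, in the authors' deposited tables. Plaur stood at 2.38 and 2.58 in Acomys and at 3.8 and 3.22 in mouse in the same authors' deposited tables. Hgfac, the gene of the HGF activator protease, fell in mouse by 1.08 and 1.19 in the authors' deposited tables, and the urokinase gene Plau fell by 1.78 on Acomys day 5.

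**Figure D3:**
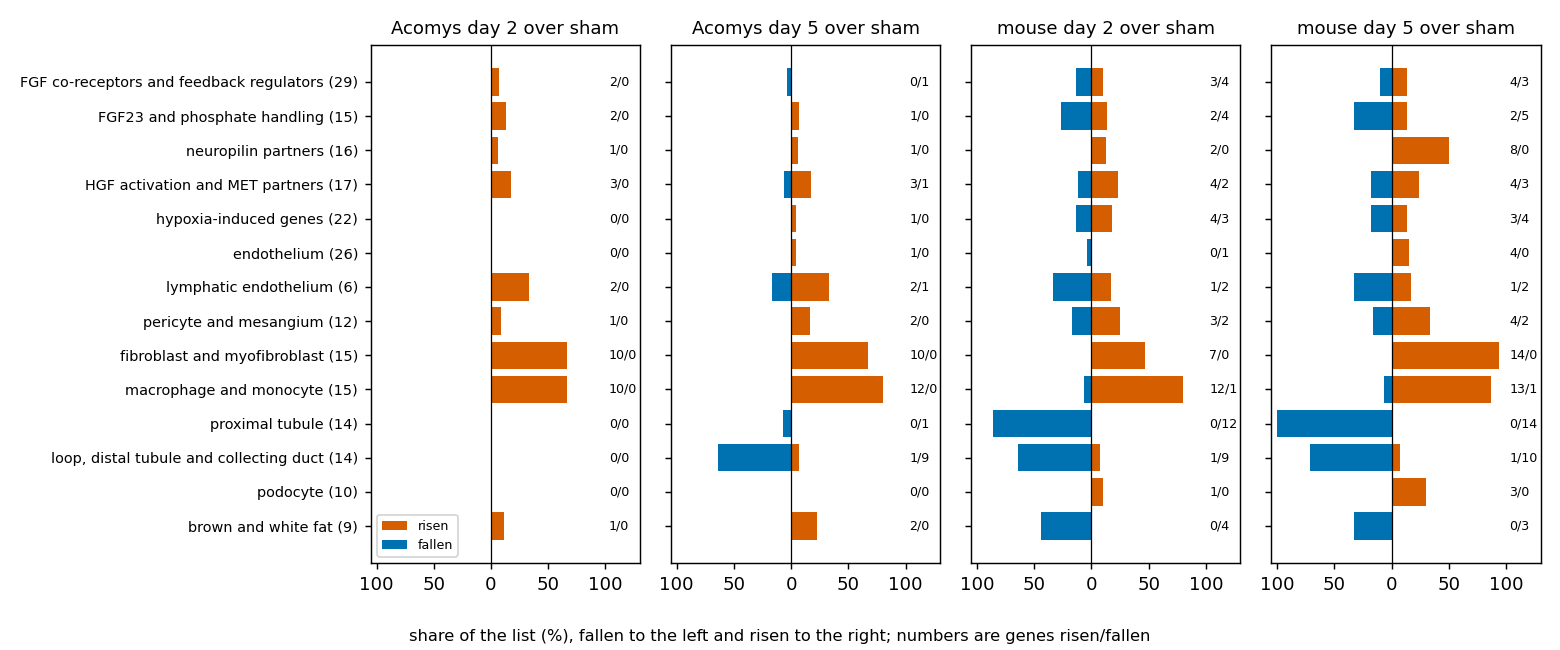
Share of each gene list that was listed as risen (right, orange) or fallen (left, blue) in each comparison, in percent of the symbols of the list. The number of symbols stands in parentheses, and the numbers at the right of each panel count risen/fallen genes. More genes of the fibroblast and macrophage lists rose than fell in all 4 comparisons, and the proximal tubule list shows 0 and 1 falls in Acomys beside 12 and 14 in mouse. A gene that was not listed may still have changed.

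Only a few genes of the set could be compared between species, those listed in both on the same day. The difference of the log2 fold changes, Acomys minus mouse, was tested with standard errors rebuilt from the FDRs, using a normal approximation (two-sided), and p-values were adjusted by Benjamini-Hochberg over every symbol listed in both species. On day 2 this called 37 of 729 symbols (5.08%) and 0 of the 2 genes of the set, and on day 5 it called 52 of 1011 (5.14%) and 0 of 3. None of these 5 differences had an unadjusted p under 0.05 (0 on day 2, 0 on day 5). Pdgfrb differed by 0.04 on day 2 (95% interval -0.89 to 0.98, adjusted p = 0.975) and by -0.78 on day 5 (95% interval -1.81 to 0.25, adjusted p = 0.592). Pdgfrl differed by -1.45 on day 5 (95% interval -3.48 to 0.59, adjusted p = 0.624). Fgfbp1 differed by -0.49 on day 2 (95% interval -2.30 to 1.31, adjusted p = 0.906), and Angptl7 by -0.27 on day 5 (95% interval -2.20 to 1.67, adjusted p = 0.953). The intervals span differences of more than 1 log2 unit for each gene except Pdgfrb on day 2, so these tests do not show that the species respond alike.

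**Figure D4:**
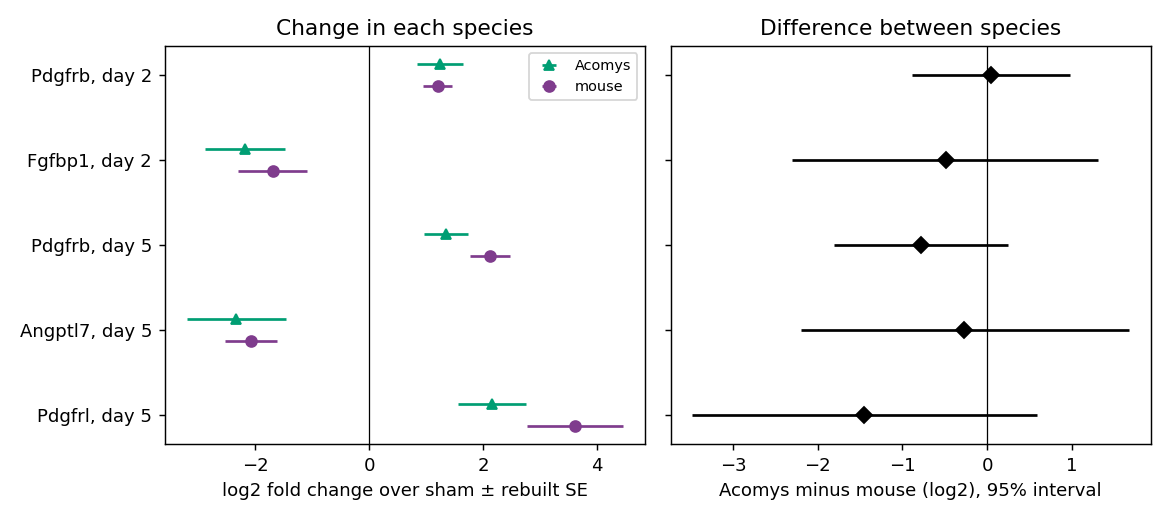
Genes of the set listed in both species on the same day: log2 fold change over sham with rebuilt standard errors for Acomys (triangles) and mouse (circles) on the left, and the Acomys minus mouse difference with its 95% interval on the right. All 5 intervals include 0, the narrowest being that of Pdgfrb on day 2 (-0.89 to 0.98).

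Most of the set was listed in mouse alone: 15 of the 17 day 2 genes and 18 of the 21 day 5 genes had no Acomys entry on that day. Most mouse entries of any kind also lacked one. Of 3915 mouse entries on day 2 and 5365 on day 5, 729 and 1011 symbols were listed in Acomys too. For the genes of the set listed in mouse alone the difference between species was not tested. The Acomys tables needed larger changes for an entry, the smallest rises being 0.95 on day 2 and 0.93 on day 5 and the smallest falls -1.23 and -1.12, against 0.73 and 0.75 for rises and -0.74 and -0.72 for falls in mouse. Of the genes of the set listed in mouse alone, 5 on day 2 and 5 on day 5 had a mouse change smaller than any Acomys change listed in that direction, so a change of that size lies outside the range the Acomys tables cover. The other 10 on day 2 and 13 on day 5, Pdgfb at 2.45 and 2.55 among them, had mouse changes at least as large as the smallest Acomys change listed at any expression. That limit is larger at low expression, and the Acomys expression of most of these genes is unknown. Whether Acomys could have listed such changes is therefore not known.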

How the data were processed

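Kidney RNA was sequenced in 6 groups of 3 libraries. The tools were Salmon and edgeR and the build mm9, per the submitters' processing notes; their versions, filters and the Acomys reference are not stated. The authors deposited 4 tables of comparisons, with log2 fold changes (base taken from edgeR), log2 mean CPM and an FDR (an adjusted p-value) per the file headers. Nothing was refitted, since no values per library are used. Acomys entries are loci to which the authors assigned mouse symbols; 644 of 1765 on day 2 and 1094 of 2500 on day 5 had none, and close paralogues there are uncertain. RefSeq sequences and symbols are of GRCm38.p6, so no coordinates were joined to the tables.

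A gene counted as risen or fallen by the sign of its listed change. Standard errors were rebuilt as the size of the fold change over the z value of its p, with p the FDR times its rank over 10000 assumed tests. The code was run on simulated data that had 10000 tests and normal errors. That run cannot check the assumed number of tests or the form of the authors' test. Values of 1 gene of the set are counted but not reported here. Families were also matched by UniProt entry name, which added 0 loci. The set, the 14 gene lists and the rule for naming genes (listed genes of the set, up to 2 highest and 2 lowest of each list, of which not all are printed, and partners of genes discussed) were chosen with earlier results of these data known. Pecam1, Adipoq, Plin1 and Lep were named as defining markers. Python 3.11.15, pandas 2.3.3, scipy 1.17.1 and matplotlib 3.10.9 were used.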

Additional observations from a re-analysis of the deposited data

How the results depend on the processing

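At an FDR under 0.01 the Acomys counts were 1 risen and 0 fallen on day 2 and 0 fallen on day 5, and mouse day 2 kept 3 rises and 4 falls. Without genes matched by name only (angiopoietin-like genes, Pdgfrl, Fgfbp1) Acomys had 1 rise and 0 falls on day 2 and 1 rise and 0 falls on day 5, which is Pdgfrb, and mouse day 5 had 4 falls. With a logCPM of at least 0, mouse day 2 had 5 rises. These shifts come from fewer genes meeting each limit. The other 35 recomputed counts stayed within 1.5 times the reported ones, and the counts of called species differences were 0 under each of the alternatives run. Adjusted p for Pdgfrb on day 5 ranged from 0.520 with 20000 assumed tests to 0.907 with the FDR itself as p. For the gene lists, 16 counts at an FDR under 0.01 and 4 at an absolute change of at least 1 moved by over 1.5 times, and 96 and 108 did not. Many of the unmoved counts were already 0, which a stricter limit cannot lower, so these totals do not measure how stable the lists are. No paired analysis was possible because only group comparisons were used here, so the replicate block and leaving out each replicate were not run. Depth per library is unknown.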

Other observations

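Immune and nephron marker lists moved beside the growth factor genes. Macrophage and monocyte genes rose in 10 of 15 cases on Acomys day 2 and 12 on Acomys day 5, with 0 fallen (medians 2.35 and 2.82), and in mouse 12 rose and 1 fell on day 2 and 13 rose and 1 fell on day 5 (medians 2.46 and 3.72). In the authors' deposited tables Trem2 stood at 3.03 and 3.8 on Acomys days 2 and 5, and at 4.05 and 4.96 on mouse days 2 and 5. The fallen mouse gene was the efferocytosis receptor gene Mertk, at -1.26 and -1.09 in the authors' deposited tables. Loop, distal tubule and collecting duct genes were at 0 rises and 0 falls of 14 on Acomys day 2, and 1 rose and 9 fell on Acomys day 5 (median -2.61). In mouse 1 rose and 9 fell on day 2 and 1 rose and 10 fell on day 5 (medians -2.45 and -1.90). The risen gene was the calcium channel gene Trpv5 in each case, at 2.65 on Acomys day 5, and at 1.90 and 1.68 on mouse days 2 and 5, in the authors' deposited tables.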
